A study of Homo sapiens with 4 samples.

Results

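The proteasome is the protease that degrades ubiquitin-tagged proteins, and its genes were followed in KYSE410 with and without YM155. KYSE410 is a cell line from a human squamous carcinoma of the esophagus, and YM155 (sepantronium) is a compound known for lowering survivin, the product of BIRC5. The members were all probe sets annotated with exactly 1 gene symbol that began with PSMA to PSMG and a digit. These were 97 of the 54675 probe sets on the array, and they named 50 of the 19775 genes so annotated. Of the 50 genes, 42 encode proteasome subunits, activators, an inhibitor or assembly factors, with 81 probe sets. The other 8 symbols match the pattern but name none of these: 2 are genes of partner proteins and 6 are antisense or divergent transcripts. The YM155 group held 2 arrays of cells exposed to 20 nM YM155 for 6 h, and the untreated group held 2 arrays. The sample labels give YM155 as the treatment, although their protocol text speaks of cisplatin. Both groups are 1 cell line, and no label says whether arrays of a group came from separate cultures. The YM155 titles also hold B1 or B2, a tag of unstated meaning that the untreated titles lack. The p-values therefore rest on a spread that may be technical only.

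As background, the core particle is a barrel of stacked rings. Its alpha subunits form the outer rings and the gate, and its beta subunits form the inner rings, where PSMB5, PSMB6 and PSMB7 carry the proteolytic sites. A regulatory particle caps the barrel: its base of ATPases (PSMC genes) unfolds the substrate, and its non-ATPase subunits (PSMD genes) bind and remove ubiquitin. Interferon signalling induces an alternative set of catalytic subunits, the immunoproteasome, which is known for making peptides for antigen presentation. Cells with impaired proteasomes are known to raise the subunit genes together through the transcription factor NFE2L1.

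Values are log2 of the deposited intensity. Of the 97 probe sets, 85 had a mean of at least 3.32 log2 over the 4 arrays (the 40th percentile of all probe sets) and were tested. The other 12 had means between 1.75 and 3.22 log2, and PSMA8, a testis alpha subunit, PSMD14-DT and PSMD7-DT had no probe set above that level. Thus 41 of the 42 proteasome genes and 6 of the 8 other genes were tested, each by its probe set of highest mean. PSMA6, PSMB11, PSMC5, PSMD7, PSMD13 and PSME2 were not analysed here. Of 32768 probe sets, 56 differed by 2-fold or more between the YM155 arrays and 1690 between the untreated arrays. YM155 replicates 1 and 2 differed that much from untreated replicate 1 at 739 and 850 probe sets and from untreated replicate 2 at 1811 and 2140. The 3' minus 5' signal of ACTB, a measure of RNA integrity, was 2.10 and 2.95 log2 in YM155 arrays and 2.72 and 2.18 log2 in untreated arrays. That of GAPDH was 0.033 and 0.21 log2 in YM155 arrays and 0.042 and 0.043 log2 in untreated arrays. The groups overlapped in both, and YM155 replicate 2 was the highest array in both. Of the squamous epithelial markers, KRT5 was at 11.19 and 11.19 log2 in YM155 arrays and at 10.86 and 10.74 log2 in untreated arrays. The arrays did not overlap, as in 4 of 8 squamous markers tested, all 4 higher in YM155 arrays, where 44.9% of all genes did not overlap. Above the same level were 8 of 10 squamous, 3 of 6 fibroblast, 1 of 6 leukocyte and 2 of 4 endothelial markers, and the brightest fibroblast marker was COL1A1 at 6.08 to 6.24 log2.

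Proteasome genes differed little between YM155 and untreated cells. Of the 41 genes, 36 differed by less than 0.2 log2 in either direction (87.8%), against 7861 of all 14043 genes tested (56.0%). The median difference, YM155 minus untreated, was −0.045 log2, beside −0.015 over all genes, and 29 of 41 were negative, where 52.9% of all genes were. With limma adjusted over 14043 genes, 0 proteasome genes were higher and 0 lower, as for the background of 0% of all genes in each direction. At an unadjusted p under 0.05, 1 of 41 was higher and 0 lower, where 5.23% of all genes were higher and 7.48% lower (12.7% together). The arrays of the groups did not overlap for 14 of 41 genes (34.1%), 6 above and 8 below, beside 44.9% of all genes, 19.3% above and 25.6% below. The smallest adjusted p of the 41 was 0.27. Without untreated replicate 1, 604 of all genes were called higher and 521 lower, and 0 of the 41 proteasome genes were.

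Intervals of the difference were narrow for most genes, but they rest on the spread within groups, which may be technical only. They therefore may not bound the change between separate cultures. The 95% limma interval of the difference lay within 2-fold for 40 of 41 genes and within 1.5-fold for 34. Standard errors ran from 0.12 to 0.26 log2. Against untreated replicate 1 alone the median of the 41 genes was −0.085, and against untreated replicate 2 alone it was 0.0018. Untreated replicate 2 stood −0.050 from replicate 1 in median, a gap no smaller than that between the groups. Among all genes, bright ones differed less: of the 1289 genes with a mean of at least 10 log2, 72.2% differed by less than 0.2 log2, as did 29 of the 29 proteasome genes that bright.

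**Figure D1:**
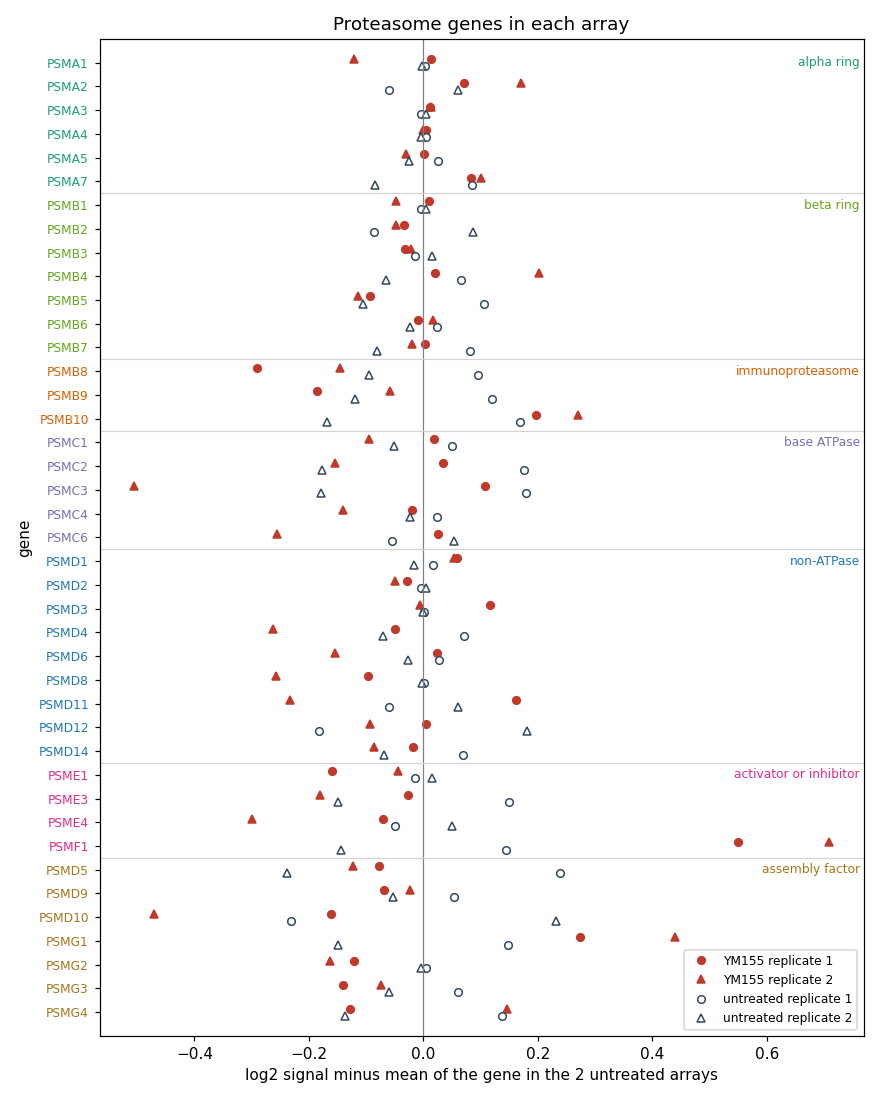
Signal of each of the 41 proteasome genes in every array, as log2 minus the gene's mean in the 2 untreated arrays (x axis), by gene (y axis) and class. Filled red symbols are YM155 arrays and open symbols untreated arrays. Core and regulatory genes lie near 0, and PSMF1 stands apart on the right at 0.63 log2.

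The alpha ring, whose subunits gate the barrel, differed little. All 6 measured genes lay within 0.2 log2, with a median of 0.0074. PSMA2 was at 11.56 and 11.66 log2 in YM155 arrays, against 11.43 and 11.55 log2 in untreated arrays (0.12 ± 0.13 SE, limma adjusted p = 0.76). PSMA7 was at 11.86 and 11.88 log2 in YM155 arrays, against 11.86 and 11.69 log2 in untreated arrays. PSMA1 was at 11.92 and 11.78 log2 in YM155 arrays, against 11.90 and 11.90 log2 in untreated arrays. Only for PSMA2, of these 3, did both YM155 arrays lie above both untreated arrays. PSMA3, PSMA4 and PSMA5 differed by 0.012, 0.0024 and −0.015 log2. PSMA4 read 11.17 and 11.16 log2 in YM155 arrays, against 11.17 and 11.16 log2 in untreated arrays, the smallest difference of the 41 genes.

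In the beta ring, which carries the proteolytic sites, all 7 genes lay within 0.2 log2 and the median was −0.020. PSMB5, the chymotrypsin-like subunit, was at 10.99 and 10.97 log2 in YM155 arrays, against 11.19 and 10.98 log2 in untreated arrays (−0.10 ± 0.14 SE, limma adjusted p = 0.815). Untreated replicate 1 was the high array, and the other 3 arrays lay together. PSMB6, the caspase-like subunit, was at 11.42 and 11.44 log2 in YM155 arrays, against 11.45 and 11.40 log2 in untreated arrays. PSMB7, the trypsin-like subunit, was at 11.96 and 11.94 log2 in YM155 arrays, against 12.04 and 11.87 log2 in untreated arrays. In PSMB6 and PSMB7 both YM155 arrays lay between the untreated arrays. Their differences were 0.0039 and −0.0089 log2, with 95% intervals of −0.32 to 0.32 and −0.36 to 0.34.

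Among the noncatalytic beta subunits, PSMB4 was at 12.29 and 12.48 log2 in YM155 arrays, against 12.34 and 12.21 log2 in untreated arrays. PSMB2 was at 11.20 and 11.19 log2 in YM155 arrays, against 11.15 and 11.32 log2 in untreated arrays. The groups overlapped in both. PSMB1 and PSMB3 differed by −0.020 and −0.027 log2. Over the whole core particle, 13 of 13 genes had a 95% interval within 1.5-fold, and 6 were positive and 7 negative.

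The immunoproteasome genes PSMB8, PSMB9 and PSMB10 had differences of both signs, and none passed the test. Their promoter windows are shown because interferon is known to induce these genes, and because PSME1, an interferon-inducible activator subunit, can be set beside them. The windows run from 250 bases before to 50 bases after a RefSeq start, in GRCh38.p14. They lie at chr6:32843998-32844297 (minus strand) for PSMB8, chr6:32853942-32854241 (plus strand) for PSMB9, chr16:67936801-67937100 (minus strand) for PSMB10 and chr14:24135944-24136243 (plus strand) for PSME1. Capitals mark GAAANNGAA, the core of the interferon-stimulated response element, or TGACNNNGC, the core of the antioxidant response element that NFE2L1 and NFE2L2 bind, on either strand. PSMB8 has 2 windows in the table, and the one with a match is printed.
PSMB8: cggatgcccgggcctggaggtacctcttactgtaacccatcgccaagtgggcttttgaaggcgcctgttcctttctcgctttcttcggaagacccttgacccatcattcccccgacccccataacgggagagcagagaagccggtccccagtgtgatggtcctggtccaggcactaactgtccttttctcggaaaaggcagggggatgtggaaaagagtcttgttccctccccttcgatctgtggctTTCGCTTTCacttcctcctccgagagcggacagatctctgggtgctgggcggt
PSMB9: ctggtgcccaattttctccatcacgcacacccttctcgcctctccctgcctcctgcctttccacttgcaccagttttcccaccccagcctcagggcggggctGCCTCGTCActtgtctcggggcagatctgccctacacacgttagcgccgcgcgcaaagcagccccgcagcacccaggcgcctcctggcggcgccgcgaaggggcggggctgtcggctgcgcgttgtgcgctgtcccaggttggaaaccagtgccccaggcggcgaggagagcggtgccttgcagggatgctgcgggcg
PSMB10: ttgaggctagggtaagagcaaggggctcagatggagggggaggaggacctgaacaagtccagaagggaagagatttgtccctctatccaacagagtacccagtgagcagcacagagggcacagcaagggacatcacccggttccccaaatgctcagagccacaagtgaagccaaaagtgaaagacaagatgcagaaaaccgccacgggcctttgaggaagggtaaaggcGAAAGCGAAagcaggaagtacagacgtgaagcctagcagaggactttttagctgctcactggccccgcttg
PSME1: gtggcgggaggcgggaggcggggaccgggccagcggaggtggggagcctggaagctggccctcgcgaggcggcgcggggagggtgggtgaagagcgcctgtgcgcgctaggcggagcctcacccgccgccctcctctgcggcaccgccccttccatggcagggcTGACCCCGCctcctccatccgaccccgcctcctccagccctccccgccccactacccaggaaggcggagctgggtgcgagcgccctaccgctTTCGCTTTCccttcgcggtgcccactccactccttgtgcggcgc

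The interferon letters stood in the windows of PSMB8, PSMB10 and PSME1, and the antioxidant letters in those of PSMB9 and PSME1. PSMB8, which replaces PSMB5, was at 8.45 and 8.60 log2 in YM155 arrays, against 8.84 and 8.65 log2 in untreated arrays. PSMB9, which replaces PSMB6, was at 8.76 and 8.89 log2 in YM155 arrays, against 9.07 and 8.83 log2 in untreated arrays. PSMB10, which replaces PSMB7, was at 7.999 and 8.07 log2 in YM155 arrays, against 7.97 and 7.63 log2 in untreated arrays. Both YM155 arrays lay below both untreated arrays for PSMB8 and above both for PSMB10, while PSMB9 overlapped. The differences were −0.22 ± 0.14 for PSMB8, −0.12 ± 0.15 for PSMB9 and 0.23 ± 0.17 for PSMB10 (SE; limma adjusted p between 0.598 and 0.792). The 95% intervals ran from −0.60 to 0.16, from −0.52 to 0.27 and from −0.20 to 0.67. PSME1 was at 10.50 and 10.61 log2 in YM155 arrays, against 10.64 and 10.67 log2 in untreated arrays.

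Over all members, the antioxidant letters were found in the windows of 13 of 36 proteasome genes with a window (36.1%), against 16.1% of 27305 genes in the RefSeq table. The interferon letters were found in 7 of 36 (19.4%), against 9.86% of all, and the CCAAT box (CCAAT) in 17 of 36 (47.2%), against 39.7% of all. The GC box (GGGCGG) was found in 24 of 36 (66.7%), against 48.3% of all. All 4 motifs were thus more frequent than among all genes, which were not matched to the proteasome genes in type or base content. By class, the antioxidant letters stood in 4 of 6 assembly factor genes, 2 of 4 activator or inhibitor genes and 3 of 8 non-ATPase genes with a window. They stood in 1 of 5 alpha ring, 1 of 5 base ATPase, 1 of 4 beta ring and 1 of 4 immunoproteasome class genes. That class was made to hold PSMA8 too, which is a testis alpha subunit and no immunoproteasome gene. Both strands were read, the 4 motifs could overlap, and a gene counted once if any of its windows held the letters. A match describes the letters and is not evidence of binding.

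The ATPases of the base had negative differences over the 4 arrays, and none stood outside the spread of the arrays. Their median was −0.081 log2, and all 5 genes had groups that overlapped. PSMC3 was at 10.82 and 10.20 log2 in YM155 arrays, against 10.89 and 10.53 log2 in untreated arrays (−0.20 ± 0.26 SE, limma adjusted p = 0.81). The 2 YM155 arrays were further apart in PSMC3 than the groups. PSMC6 was at 10.22 and 9.94 log2 in YM155 arrays, against 10.14 and 10.25 log2 in untreated arrays. PSMC4 was at 10.57 and 10.45 log2 in YM155 arrays, against 10.61 and 10.56 log2 in untreated arrays. YM155 replicate 2 was the lowest array in all 3 genes, and it also had the highest 3' minus 5' signal, whose part in these values was not tested. Without that array the median of the 5 ATPases was 0.025. PSMC1 and PSMC2 differed by −0.038 and −0.060 log2.

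The non-ATPase subunits, which include the ubiquitin receptor PSMD4 and the deubiquitinase PSMD14, also stayed within 0.2 log2, in 9 of 9 genes. Their median was −0.045, with 7 negative and 2 positive. PSMD8, a lid subunit, was at 10.52 and 10.36 log2 in YM155 arrays, against 10.62 and 10.61 log2 in untreated arrays (−0.18 ± 0.13 SE, limma adjusted p = 0.645). PSMD4 was at 11.03 and 10.81 log2 in YM155 arrays, against 11.15 and 11.005 log2 in untreated arrays. PSMD6, a lid subunit, was at 10.64 and 10.46 log2 in YM155 arrays, against 10.64 and 10.59 log2 in untreated arrays. The groups did not overlap in PSMD8 and overlapped in PSMD4 and PSMD6. The deubiquitinase PSMD14 differed by −0.053, and the base scaffolds PSMD1 and PSMD2 by 0.056 and −0.040 log2. PSMD3, PSMD11 and PSMD12 of the lid differed by 0.055, −0.036 and −0.045 log2. Of the 14 regulatory particle genes, 13 had a 95% interval within 1.5-fold, the exception being PSMC3 (−0.88 to 0.49). The median of the 14 was −0.057, and 0.021 without YM155 replicate 2.

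**Figure D2:**
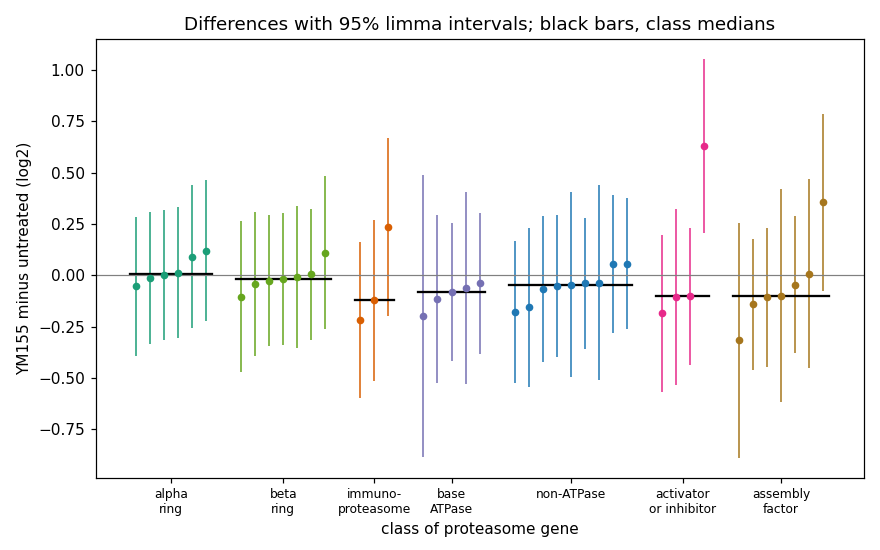
Difference of each proteasome gene, YM155 minus untreated in log2 (y axis), with its 95% limma interval, by class (x axis). Black bars are class medians, between −0.12 for the immunoproteasome and 0.0074 for the alpha ring, and PSMF1 has an interval above 0 (0.20 to 1.05) before adjustment.

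Among activators and the inhibitor, PSMF1 had the largest difference of all 41 genes by its probe set of highest mean. It did not pass the adjusted threshold, and another bright probe set did not share the difference. PSMF1 encodes a protein that inhibits the core particle in vitro. It was at 8.40 and 8.56 log2 in YM155 arrays, against 7.99 and 7.70 log2 in untreated arrays (0.63 ± 0.16 SE, limma unadjusted p = 0.0131, adjusted p = 0.27). Both YM155 arrays lay above both untreated arrays, and with each array left out the difference ran from 0.48 to 0.77. Averaged over its probe sets it was 0.29. Other PSMF1 probe sets were not alike: a dim pair gave 0.32 and 0.30, while a bright one gave −0.096. That bright probe set was at 8.24 and 7.76 log2 in YM155 arrays, against 8.09 and 8.10 log2 in untreated arrays. In untreated arrays it was the brighter of the 2 (mean 8.09 against 7.85 log2), and in YM155 arrays the dimmer (7.998 against 8.48 log2). The probe set that stands for PSMF1 was thus chosen through its YM155 values. Its difference, range and sign hold for that probe set only.

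PSME4, the gene of a large activator found in the nucleus, was at 8.94 and 8.71 log2 in YM155 arrays, against 8.96 and 9.06 log2 in untreated arrays. The groups did not overlap, and the difference was −0.18 ± 0.15 (SE). A dimmer PSME4 probe set was at 7.44 and 7.38 log2 in YM155 arrays, against 7.89 and 8.35 log2 in untreated arrays (−0.71 ± 0.20 SE, limma unadjusted p = 0.018). PSME3, a nuclear activator gene, was at 9.89 and 9.74 log2 in YM155 arrays, against 10.07 and 9.77 log2 in untreated arrays. Its 4 probe sets gave differences from −0.10 to 0.39. The highest of these was at 7.30 and 7.25 log2 in YM155 arrays, against 6.95 and 6.82 log2 in untreated arrays, with no overlap (limma unadjusted p = 0.0392).

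The assembly factors held the next 2 largest differences. PSMG1, which with PSMG2 chaperones the alpha ring, was at 8.93 and 9.10 log2 in YM155 arrays, against 8.80 and 8.51 log2 in untreated arrays. The groups did not overlap, and the difference was 0.36 ± 0.16 (SE; limma adjusted p = 0.466). PSMD10, the base chaperone gankyrin, was at 9.81 and 9.50 log2 in YM155 arrays, against 9.74 and 10.20 log2 in untreated arrays. These groups overlapped, and the difference was −0.32 ± 0.22 (SE). PSMG2 was at 11.63 and 11.58 log2 in YM155 arrays, against 11.75 and 11.74 log2 in untreated arrays, with no overlap and a difference of −0.14 ± 0.12 (SE). The partners PSMG1 and PSMG2 thus had opposite signs. PSMG3 and PSMG4, of the other chaperone pair, differed by −0.11 and 0.0085, and PSMD5 and PSMD9, chaperones of the base, by −0.10 and −0.046 log2. Of the 7 assembly factors, 5 lay within 0.2 log2.

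Probe sets of 1 gene share a transcript and are not replicates, and they often differed. Of 73 tested probe sets of proteasome genes, 29 were positive and 44 negative, where 52.9% of all 32768 probe sets were negative. By limma, 0 were called in either direction, as were 0% of all probe sets. At an unadjusted p under 0.05, 5 were higher and 1 lower (8.22% together), where 5.03% and 6.06% of all probe sets were (11.1% together). Among the 5 was a dim PSMC2 probe set that passed the filter only through its YM155 values. Groups did not overlap in 29 of 73 (39.7%), 15 above and 14 below, beside 43.3% of all, 19.4% above and 23.9% below. Of the 20 genes with more than 1 tested probe set, 14 had probe sets of both signs and 6 had probe sets over 0.5 log2 apart.

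PSMD12, the gene of a lid subunit, showed this at clear signal. Its brightest probe set was at 10.17 and 10.07 log2 in YM155 arrays, against 9.98 and 10.34 log2 in untreated arrays. Its other probe set was at 9.14 and 9.34 log2 in YM155 arrays, against 8.62 and 7.92 log2 in untreated arrays (0.97 ± 0.27 SE, limma unadjusted p = 0.0176, adjusted p = 0.362). The groups overlapped in the first and did not in the second. A second PSMD10 probe set was at 9.35 and 8.25 log2 in YM155 arrays, against 9.31 and 9.73 log2 in untreated arrays, so that YM155 replicate 2 alone stood low. The wide gaps of PSMA5, PSMC2 and PSMA3 involved dim probe sets, while those of PSMF1 and PSME4, given above, did not. PSMA5 gave 1.001 ± 0.31 (SE) with a probe set at 4.61 and 5.11 log2 in YM155 arrays, against 4.22 and 3.50 log2 in untreated arrays. PSMC2 gave 0.81 ± 0.24 (SE) with one at 3.59 and 4.19 log2 in YM155 arrays, against 3.09 and 3.06 log2 in untreated arrays. The untreated values of that PSMC2 probe set lay below the level used to filter, where signal is not shown to exceed background. PSMA3 gave −0.79 ± 0.62 (SE) with one where untreated replicate 2 alone was high.

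**Figure D3:**
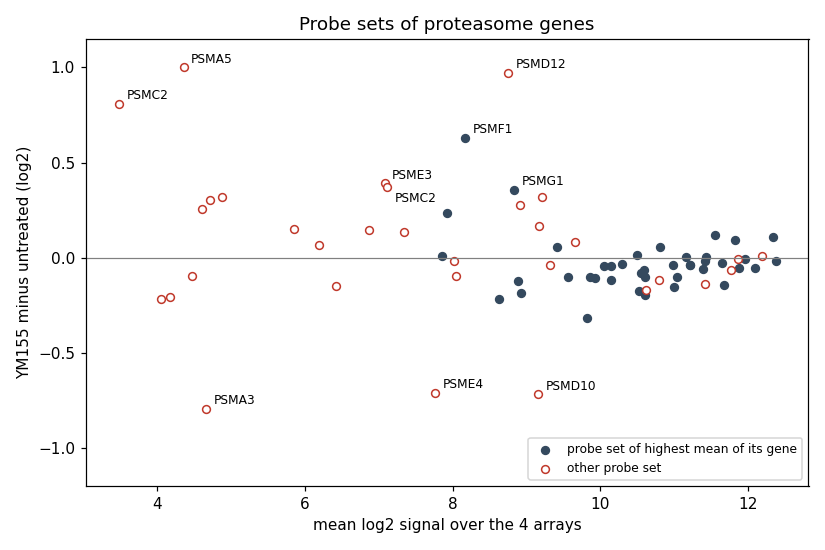
Difference of each tested probe set of the proteasome genes, YM155 minus untreated in log2 (y axis), against its mean log2 signal over the 4 arrays (x axis). Filled points are the brightest probe set of a gene and open points the others, and points beyond 0.35 log2 in either direction are named. Bright probe sets lie near 0, while PSMA5 (1.001) and PSMD12 (0.97) are highest.

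The 6 tested genes of the other matching symbols had larger differences, with a median absolute value of 0.41 log2 against 0.081 for the 41 proteasome genes. They were also dimmer, with a median signal of 5.77 against 10.60 log2. Their untreated arrays were further apart, by a median absolute gap of 0.50 against 0.12 log2. The part of low signal in these differences was not tested. PSMD6-AS2, an RNA antisense to the lid gene PSMD6, was at 5.79 and 6.14 log2 in YM155 arrays, against 5.51 and 5.09 log2 in untreated arrays (0.67 ± 0.22 SE, limma unadjusted p = 0.0301, adjusted p = 0.335). Its second probe set was at 5.03 and 5.55 log2 in YM155 arrays, against 3.55 and 4.19 log2 in untreated arrays (1.42 ± 0.30 SE). Both probe sets were higher in both YM155 arrays, whereas PSMD6 itself differed by −0.065 log2. PSMC3IP encodes a recombination protein that was named for binding PSMC3. It was at 7.52 and 7.66 log2 in YM155 arrays, against 7.94 and 7.94 log2 in untreated arrays (−0.35 ± 0.13 SE, limma unadjusted p = 0.0449, adjusted p = 0.378). Its second probe set gave −0.34. PSMB8-AS1, antisense to PSMB8, was at 3.87 and 4.27 log2 in YM155 arrays, against 6.00 and 4.60 log2 in untreated arrays, where untreated replicate 1 was high. PSMA3-AS1 was at 6.21 and 6.07 log2 in YM155 arrays, against 6.05 and 5.31 log2 in untreated arrays. PSME3IP1, a partner of PSME3, and PSMG3-AS1 differed by −0.37 and −0.15 log2. No gene of this group passed the adjusted threshold, and 2 of 6 had an unadjusted p under 0.05, beside 12.7% of all genes. Without untreated replicate 1, PSMA3-AS1 passed (0.83 log2, limma adjusted p = 0.0492), as 604 genes did upward and 521 downward of 14043.

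Other proteasome proteins, whose symbols lie outside the pattern, had both signs. Of 15 measured, 8 were positive and 7 negative, with a median of 0.0025. By limma, 0 of the 15 had an unadjusted p under 0.05, beside 12.7% of all genes. PAAF1, which binds the base ATPases, was at 8.21 and 7.94 log2 in YM155 arrays, against 8.34 and 8.63 log2 in untreated arrays. UBE3C, a proteasome-bound ubiquitin ligase, and PITHD1 differed by 0.34 and 0.32 log2. The groups did not overlap in these 3, nor in 8 of the 15 together (53.3%), 5 above and 3 below, beside 44.9% of all genes. POMP, which drives core assembly, differed by −0.0078, ADRM1, a ubiquitin receptor, by −0.035 and SEM1, a lid subunit, by −0.054 log2.

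Transcription factors and processing enzymes of the proteasome genes had a median of −0.11 over 11 genes, 3 positive and 8 negative. NFE2L1 was at 9.30 and 9.30 log2 in YM155 arrays, against 9.60 and 9.25 log2 in untreated arrays, so the groups overlapped. NGLY1, the deglycosylase that NFE2L1 needs for activity, was at 8.10 and 8.09 log2 in YM155 arrays, against 8.62 and 8.40 log2 in untreated arrays (−0.42 ± 0.14 SE, limma unadjusted p = 0.0336, adjusted p = 0.347). BTRC and NFYB differed by 0.30 and −0.24 log2, both with overlap. Other NFYB probe sets gave from −0.67, with no overlap, to 0.090 log2. Of 12 ubiquitin precursor, shuttle and segregase genes, 8 were positive and 4 negative, with a median of 0.047. UBQLN2, a ubiquitin shuttle, was at 9.24 and 9.46 log2 in YM155 arrays, against 8.94 and 8.999 log2 in untreated arrays (0.38 ± 0.14 SE, limma adjusted p = 0.382). NPLOC4, a cofactor of the segregase VCP, and FAF1 differed by 0.29 and −0.26 log2.

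Antigen processing genes mostly act on the peptides that the immunoproteasome makes, and the list also held the regulators IRF1 and NLRC5. Over its 14 genes, 6 differences were positive and 8 negative, with a median of −0.081. IRF1, an interferon-induced factor known to drive PSMB9 and TAP1, was at 6.20 and 6.43 log2 in YM155 arrays, against 7.22 and 7.20 log2 in untreated arrays. Its difference of −0.90 ± 0.14 (SE) was the widest in these lists by the probe set of highest mean of each gene. It held its sign with each array left out (−1.02 to −0.78). With all 4 arrays the limma unadjusted p was 0.00194 and the adjusted p 0.185. Its second probe set gave −0.56. Wider differences came from dimmer probe sets of HLA-F (−1.40) and NFYA (1.03). TAP2, a subunit of the peptide transporter, and CALR, a chaperone of MHC class I, differed by 0.35 each, although other TAP2 probe sets gave 0.094 and −0.021. Other CALR probe sets gave 0.56 and 0.88. TAP1, which neighbours PSMB9 on chromosome 6, was at 7.92 and 7.93 log2 in YM155 arrays, against 8.08 and 8.22 log2 in untreated arrays. In RNA from whole cultures, fewer cells expressing a gene and less RNA per cell cannot be told apart.

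**Figure D4:**
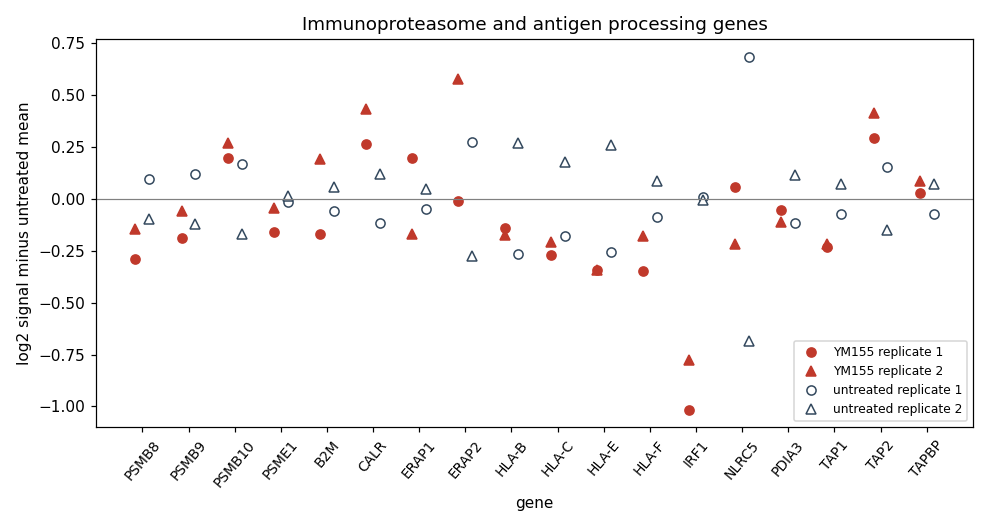
Signal of the immunoproteasome genes, PSME1 and the antigen processing genes in every array, as log2 minus the gene's untreated mean (y axis), by gene (x axis). Filled red symbols are YM155 arrays and open symbols untreated arrays. IRF1 stands lowest, at −0.90 in mean, while PSMB8 and PSMB10 lie on opposite sides of 0.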

How the data were processed

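RNA of KYSE410 cells was measured on 4 Affymetrix arrays. What the authors deposited is an intensity for each probe set, made by RMA per the submitters' processing notes, with no version given in the sources used. The intensity values ran from 2.42 to 15214 and were linear, so log2 was taken. RMA sets the arrays to a common distribution (array medians of 16.0 to 16.3), so a shift shared by all genes is not measured. Detection calls were not used. Samples were grouped by their titles.

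Control probe sets (62) were left out. Gene symbols came from the platform annotation, and all 50 matching symbols were the same in RefSeq. A further 5 probe sets pair such a symbol with another gene and name no gene here. The 41 genes were represented by an _x_at probe set in 4 cases and an _s_at one in 14, types that can match more than 1 transcript. YM155 was compared with untreated by limma 3.58.1 in R 4.3.3 across all genes (lmFit, then eBayes with 2.69 prior degrees of freedom, two-sided, no covariate), with Benjamini-Hochberg adjustment and a threshold of 0.05. The number of arrays limits the precision. The fit was tested on simulated data with known changes: few of the changes of 1 log2 were recovered, and most of those of 2 log2. An absence of called genes therefore does not by itself exclude changes of 1 log2.

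Classes and lists were described by counts and medians, without a test. Members and lists were chosen with earlier results of these data known. Values in every array are given for PSMB5 to PSMB10, for member genes with an unadjusted p under 0.05 and for the 3 largest absolute differences of a class. For each of the 4 pathway lists the 3 largest were named. Further genes and probe sets were named after their values were seen. Alternatives were other filters, the mean of probe sets, leaving out _x_at and _s_at probe sets, a repeated quantile normalization, median centring, trend and robust eBayes, array weights, the replicate number as a block, and each array left out. Promoter windows came from the RefSeq table of GRCh38.p14, which held 36 of the 42 genes.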

Additional observations from a re-analysis of the deposited data

How the results depend on the processing

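No proteasome gene or probe set was called under any of the 13 alternatives, and the smallest adjusted p of a proteasome gene in them was 0.0542. Over all genes, 604 were called higher and 521 lower without untreated replicate 1, among them PSMA3-AS1 (0.83 log2, limma adjusted p = 0.0492), and 0 in both directions in every other setting, so counts without 1 array ran from 0 to 604 and from 0 to 521. That fit takes its spread from the YM155 arrays alone. The deviations of same-numbered arrays correlated at 0.00036 across genes, so no shift shared by replicate number was seen. With 2 arrays in each group this is a single correlation, which cannot settle whether the arrays were paired. With the replicate number as a block, 0 genes were called and the smallest adjusted p was 0.407. Class medians moved as follows. With no filter the immunoproteasome class took in PSMA8, the testis alpha subunit, which lies below the filter, and the class median was 0.039. With the mean of probe sets the activator and inhibitor median was 0.020 and the alpha ring median 0.027. Without _x_at or _s_at probe sets the alpha ring median was −0.0065 and the immunoproteasome median, then of PSMB9 and PSMB10 alone, 0.055. With arrays left out in turn, medians ran over −0.085 to 0.0018 for all proteasome genes, −0.021 to 0.0086 for the core, −0.090 to 0.027 for the catalytic subunits, −0.11 to −0.035 for activators and inhibitor and −0.13 to 0.0075 for assembly factors. They ran over −0.15 to 0.025 for the base, −0.094 to 0.0040 for the non-ATPases, −0.15 to 0.021 for the regulatory particle, 0.0023 to 0.013 for the alpha ring, −0.021 to 0.0018 for the beta ring and −0.24 to −0.0024 for the immunoproteasome. Signs of genes near 0 were not fixed, and the cause was not tested. The sign changed with the mean of probe sets for PSME3 (0.14), PSMA3 (−0.39), PSMA5 (0.49), PSMD9 (0.053), PSMG4 (−0.10), PSMC2 (0.37), PSMB2 (0.12), PSMB7 (0.029), PSMD11 (0.050), PSMD12 (0.46), without _x_at or _s_at probe sets for PSMA2 (−0.016), PSMG4 (−0.095), PSMC2 (0.37), PSMB2 (0.26), PSMD11 (0.14), and with a second quantile normalization for PSMA4 (−0.0090), PSMB1 (0.015), PSMB6 (−0.0072). It also changed over the arrays left out. There the difference ran for PSMA1 from −0.12 to 0.014, PSMA4 from −0.0024 to 0.0072, PSMA5 from −0.040 to 0.0094, PSMB1 from −0.048 to 0.0089, PSMB2 from −0.13 to 0.045, PSMB5 from −0.21 to 0.0018, PSMB6 from −0.019 to 0.027 and PSMB7 from −0.090 to 0.072. It ran for PSMC1 from −0.095 to 0.019, PSMC2 from −0.24 to 0.12, PSMC3 from −0.51 to 0.11, PSMC6 from −0.26 to 0.025, PSMD11 from −0.23 to 0.16, PSMD12 from −0.23 to 0.14 and PSMD14 from −0.12 to 0.016. It ran for PSMD3 from −0.0062 to 0.12, PSMD5 from −0.34 to 0.14, PSMD6 from −0.15 to 0.023, PSMD9 from −0.099 to 0.0075, PSME3 from −0.25 to 0.045, PSMG3-AS1 from −0.44 to 0.13 and PSMG4 from −0.13 to 0.15. Of the 47 genes tested, 23 kept 1 sign in every setting that held them, PSMF1 and PSMG1 among them. Most settings, and every array left out, kept the same probe set for a gene, so they could not show disagreement between probe sets. For PSMF1 that probe set was chosen through its YM155 values, and another bright one gave −0.096. PSMG1 had only 1 tested probe set. Depth in the sense of signal limits the probe sets near 3.32 log2, whose values are not shown to exceed background.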

Other observations

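In some members the untreated arrays were further apart than the groups. PSMD11, a lid gene, was at 7.32 and 7.51 log2 in YM155 arrays and at 6.52 and 8.03 log2 in untreated arrays with its dimmer probe set. Both YM155 arrays lay between the untreated arrays. The brighter PSMD11 probe set was at 10.47 and 10.08 log2 in YM155 arrays and at 10.25 and 10.37 log2 in untreated arrays. PSMD5 was at 9.53 and 9.49 log2 in YM155 arrays and at 9.85 and 9.37 log2 in untreated arrays. Its untreated arrays were 0.48 log2 apart, and its YM155 arrays 0.045 log2. Across the 41 proteasome genes the absolute gap between replicates had a median of 0.11 log2 in YM155 arrays and 0.12 log2 in untreated arrays. Over all 14043 genes that median was 0.12 log2 in YM155 arrays and 0.23 log2 in untreated arrays.

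The core and the regulatory particle differed in which group was less even. In the 13 core genes the median absolute gap was 0.024 log2 between YM155 arrays and 0.050 log2 between untreated arrays. In the 14 regulatory particle genes it was 0.14 log2 between YM155 arrays and 0.10 log2 between untreated arrays. YM155 replicate 2 stood −0.14 log2 from replicate 1 in median over the regulatory particle genes, and −0.0049 log2 over the core genes. It was also the array with the highest 3' minus 5' signal of ACTB and GAPDH. No test was made of this gap or of the part of RNA integrity in it.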
